A study of Rattus norvegicus with 30 samples.

Results

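Rat hearts given preconditioning with an anaesthetic (APC) were compared with hearts exposed to ischaemia without preconditioning (ISCH). The APC hearts are read here as having had the ischaemia too, after the preconditioning, which their titles do not state. The comparison takes the 5 arrays titled APC and the 5 titled ISCH, 10 of the 30 arrays of the series, and covers every probe set that is not an array control. All arrays hold total RNA of the rat left ventricle, and the labels state 5 biological replicates per protocol. The other groups of 5 arrays each are control hearts (CTL), hearts given ischaemic preconditioning (IPC) and the trigger groups APC_TRI and IPC_TRI. The IPC hearts are likewise read as having had the later ischaemia. The trigger groups are read here as hearts that had the preconditioning stimulus alone, with no ischaemia after it. The labels name neither the anaesthetic and its dose nor the length of the ischaemia, and give no strain, sex or age of the animals.

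Preconditioning is a short stimulus that makes heart muscle better able to withstand a later loss of blood flow. The stimulus can be brief bouts of ischaemia or a volatile anaesthetic, and both are known to act through receptor signalling, protein kinases and potassium channels of the mitochondria. The ventricle is mostly cardiomyocytes by mass, and fibroblasts, endothelial cells and smooth muscle cells make up much of the rest by number. In RNA from whole tissue, fewer cells of a type and less RNA per cell cannot be told apart.

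Values are array signals on a linear scale, and changes are differences of log2(signal + 16) after quantile normalisation, with the standard error (SE) and n = 5 arrays per group. A probe set, the group of probes that measures 1 transcript, passed at a Benjamini-Hochberg adjusted p under 0.05 from limma, fitted over all 30 arrays and 5244 probe sets. The pseudocount of 16 understates changes of weak signals, and signals of different probe sets are not comparable with each other. Heart muscle markers had strong signals in both groups, with Myh6 at 31081 to 48173 on the ISCH arrays and 23027 to 35987 on the APC arrays. The deposited arrays had a common trimmed mean of 501 or close to it. The arrays of the groups compared differed in technical measures: the bacterial spike signal was 11.14 to 12.77 (log2) on the ISCH arrays and 10.41 to 11.07 on the APC arrays, without overlap. The brightest 1% of probe sets held 33.56% to 44.3% of the total signal on the ISCH arrays and 25.52% to 32.08% on the APC arrays. The log2 difference between 3′ and 5′ beta-actin probe sets, a sign of RNA quality, was 0.319 ± 0.063 in ISCH and 0.0403 ± 0.268 in APC (SD, n = 5).

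Few probe sets passed the threshold between preconditioned and unprotected hearts, and nearly all of those were lower in APC. The receptor genes Notch1 and Nrp1 and the matrix proteoglycan gene Dcn fell 1.99-fold, 2.06-fold and 1.73-fold. Ttn, Rpl19l4, Vamp5 and 7 probe sets that do not carry 1 gene symbol fell too. Of 5244 probe sets tested, 14 passed (0.267%), of which 13 were lower in APC (0.248%) and 1 was higher (0.0191%). At an unadjusted limma p under 0.05 there were 643 probe sets (12.3%). By gene, 213 were higher (6.75%) and 165 lower (5.23%) at that level, so that the lean to the lower side belongs to the calls. The 14 changes were between 0.79 and 1.74 in size on the log2 scale. Of the 14, 12 had no overlap between the 5 APC and the 5 ISCH arrays, against 3.57% of all probe sets tested. The 14 were chosen by their p on these same arrays, so that this lack of overlap largely follows from the choice. Of the 14, 7 carried 1 gene symbol, and 4 of these were the probe set chosen to stand for their gene among 3155 genes tested (0.127%).

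**Figure D1:**
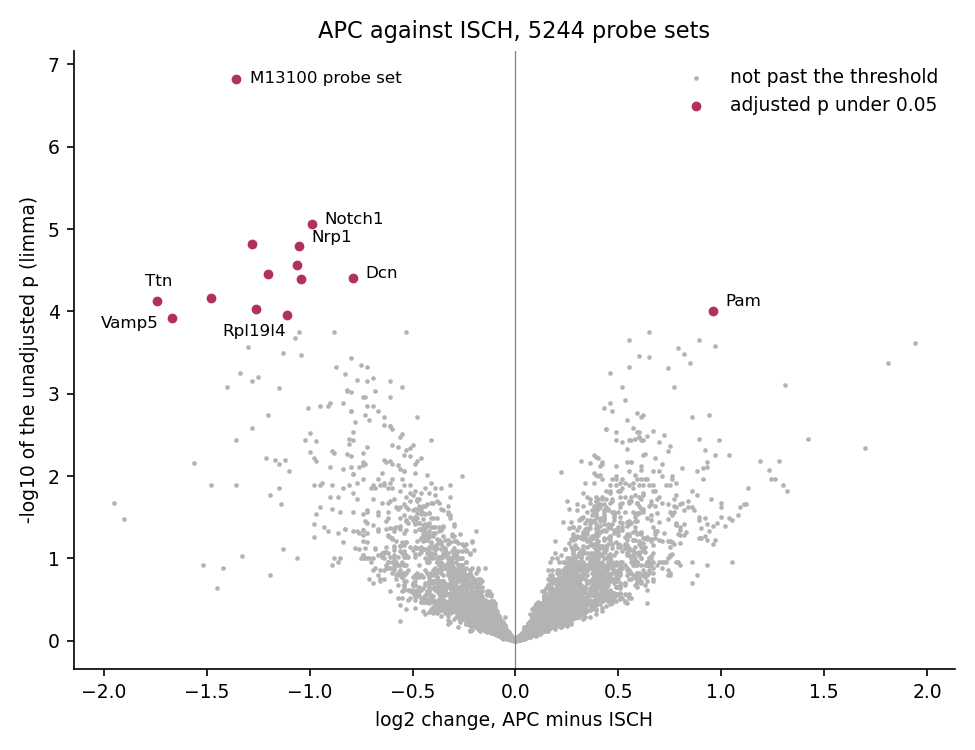
Log2 change of APC minus ISCH (horizontal) against -log10 of the unadjusted limma p (vertical) for the 5244 probe sets tested. The 14 probe sets with an adjusted p under 0.05 are in red, 13 on the lower side and Pam on the higher side.

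The number that passed depended on the array scaling and on single arrays. Centring each array on its median left 1 call, the values as deposited gave 54 (14 higher, 40 lower), centring on the median of the probe sets tested gave 39 (15 higher, 24 lower) and array weights gave 203 (95 higher, 108 lower), while a covariate for the bacterial spikes left 0 and one for the actin difference 3, the former with 397 probe sets at an unadjusted p under 0.05. Without ISCH 3, without ISCH 5 or without APC 5, 1 passed, without APC 1, 3 or 4 between 4 and 6 passed, and without ISCH 1 or 2 there were 25 and 33.

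Notch1 encodes a receptor that is cut on binding a ligand on a neighbouring cell, and its inner part then acts on transcription in the nucleus. Its signal on the 5 ISCH arrays was 1113, 1106, 1347, 1133 and 1136, and on the 5 APC arrays 593, 421, 624, 684 and 627. Every APC array lay below every ISCH array, and the ISCH arrays were close together apart from the third. Notch1 fell by 0.99 on the log2 scale (SE 0.19, adjusted p = 0.021 from limma, n = 5 arrays per group). The CTL arrays ran from 606 to 753 and the APC_TRI arrays from 621 to 868, so that the APC arrays were near or below CTL and the ISCH arrays above it. A second Notch1 probe set gave -0.48 ± 0.21 (adjusted p = 0.35).

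Nrp1 encodes neuropilin-1, a co-receptor for VEGF and class III semaphorins on endothelial and other cells. On the ISCH arrays its signal was 750, 929, 1817, 1124 and 1074, and on the APC arrays 686, 474, 570, 383 and 495. The groups did not overlap, although the first ISCH array and the first APC array lay close together. Nrp1 fell by 1.05 on the log2 scale (SE 0.20, adjusted p = 0.021). In CTL the signal ran from 278 to 569, and the IPC arrays ran from 589 to 1129.

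Around these receptors, most pathway genes did not pass. Over all 3155 genes tested 4 passed (0.127%). The 1 gene that fell in each of the lists of this paragraph is the called receptor gene itself, Notch1 or Nrp1. In the list of the Notch pathway 1 of 14 genes tested fell, 0 rose and 13 did not pass, with a median change of 0.06 that turned to -0.06 with the values as deposited. Jag2, a Notch ligand, had -0.30 ± 0.20, Adam10, a protease that cuts the receptor, 0.30 ± 0.25, and the ligand gene Dll3 0.20 ± 0.18. Hes1, a target gene of Notch signalling named here outside the naming rule, had 0.18 ± 0.31. In the list of neuropilin, VEGF and angiopoietin genes 1 of 12 fell, 0 rose and 11 did not pass, with a median of -0.13. Vegfb, a VEGF family ligand strongly expressed in heart muscle, had 0.55 ± 0.13 (adjusted p = 0.056), with 1309, 2047, 1579, 1634 and 1440 on the ISCH arrays and 2387, 2271, 2510, 2569 and 2419 on the APC arrays. Its groups did not overlap. The VEGF receptor genes Flt1 (-0.68 ± 0.37) and Kdr (-0.65 ± 0.38) and the growth factor gene Fgf1 (0.50 ± 0.27) had adjusted p-values of 0.47 to 0.52.

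Promoter sequences are shown for Notch1, Nrp1 and Ttn, 3 of the 4 genes that fell and have an entry in the RefSeq promoter table, to set their starts side by side. Each spans 250 bases before to 50 after the gene's start in the GRCr8 build, 5′ to 3′ on the gene's strand, with matches to GGGCGG on either strand, the core of the GC box, in capitals. The windows are chr3:29721564-29721863 on the minus strand for Notch1, chr19:73256307-73256606 on the plus strand for Nrp1 and chr3:82332061-82332360 on the minus strand for Ttn.
Notch1: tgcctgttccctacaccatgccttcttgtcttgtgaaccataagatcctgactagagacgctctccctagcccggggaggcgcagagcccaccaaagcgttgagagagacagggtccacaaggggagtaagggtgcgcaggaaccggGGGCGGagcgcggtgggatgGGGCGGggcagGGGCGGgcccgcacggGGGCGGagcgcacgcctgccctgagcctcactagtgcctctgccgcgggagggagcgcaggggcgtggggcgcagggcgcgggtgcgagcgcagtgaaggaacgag
Nrp1: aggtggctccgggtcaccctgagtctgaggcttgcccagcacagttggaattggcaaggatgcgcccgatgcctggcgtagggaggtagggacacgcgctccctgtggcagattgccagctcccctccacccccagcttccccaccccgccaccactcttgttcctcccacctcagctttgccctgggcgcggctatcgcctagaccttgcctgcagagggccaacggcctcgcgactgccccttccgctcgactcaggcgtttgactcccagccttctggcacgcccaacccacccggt
Ttn: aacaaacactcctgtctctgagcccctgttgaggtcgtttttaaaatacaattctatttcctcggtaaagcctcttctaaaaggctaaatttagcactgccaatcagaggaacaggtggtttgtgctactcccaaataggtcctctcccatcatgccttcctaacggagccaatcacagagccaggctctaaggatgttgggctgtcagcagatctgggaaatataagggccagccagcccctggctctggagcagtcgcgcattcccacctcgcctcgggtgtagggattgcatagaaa
The Notch1 window held 4 matches, with first bases at -103, -83, -72 and -56 from the start, and the Nrp1 and Ttn windows held 0. The windows of Vamp5, which also fell, and of Pam, which rose, held 2 and 4 matches that overlap in part and are not shown. Of 33469 rat promoters of the same length, 33.1% held at least 1 match and 17% held 2 or more.

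Dcn encodes decorin, a small proteoglycan that coats collagen fibrils and is made mainly by fibroblasts. The called probe set had signals of 7533, 6573, 10050, 7752 and 7266 on the ISCH arrays and 5694, 5344, 4291, 3006 and 4601 on the APC arrays. All APC arrays lay below all ISCH arrays, and the CTL arrays ran from 4040 to 5638. Dcn fell by 0.79 on the log2 scale (SE 0.16, adjusted p = 0.027). Its other 3 probe sets did not pass and had -0.61 ± 0.17, -0.47 ± 0.20 and -0.30 ± 0.30.

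Ttn encodes titin, the giant spring protein of the sarcomere, and its call came from a probe set of weak signal. The ISCH arrays had 243, 84.2, 328, 295 and 348, and the APC arrays 93.4, 37.9, 29.1, 97.9 and 35.4. The second ISCH array lay within the APC range. Ttn fell by 1.74 on the log2 scale (SE 0.38, adjusted p = 0.039), and CTL ran from 112 to 255. The other 18 sarcomere genes did not pass.

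Rpl19l4, by its symbol a gene like the ribosomal protein gene Rpl19, had 739, 1731, 2599, 2200 and 2776 on the ISCH arrays and 712, 849, 605, 838 and 821 on the APC arrays. The first ISCH array lay within the APC range and the other 4 were above it. Rpl19l4 fell by 1.26 on the log2 scale (SE 0.28, adjusted p = 0.043), with the limit that probes to such a gene may bind its relatives. What this probe set binds was not tested, and the name rests on the annotation alone. In APC_TRI minus CTL it fell as well, by 1.17 on the log2 scale (adjusted p = 0.0087 from limma). The difference between the 2 changes was -0.09 (adjusted p = 0.91). Vamp5, a membrane fusion protein gene, had 321, 254, 192, 290 and 214 on the ISCH arrays and 73.8, 104, 60.4, 51.9 and 32.6 on the APC arrays, without overlap. Vamp5 fell by 1.67 on the log2 scale (SE 0.38, adjusted p = 0.047), but a second Vamp5 probe set had -0.02 ± 0.30.

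Pam encodes the enzyme that adds the amide group to the end of peptide hormones, and the protein is abundant in atrial secretory granules. It was the only probe set that rose. The ISCH arrays had 7596, 5472, 2304, 5190 and 5320, and the APC arrays 7700, 12724, 8590, 9426 and 9182. The groups did not overlap, but ISCH 1 and APC 1 were nearly equal and ISCH 3 was far below the rest. Pam rose by 0.96 (SE 0.22, adjusted p = 0.043), and CTL ran from 8282 to 10135. Its other 6 probe sets had changes from -0.44 to 0.13, and those tested did not pass.

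The other 7 called probe sets carry several gene symbols or none in the annotation used here, and come from 5 source sequences by their IDs. The lowest p belonged to M13100cds#2_s_at, with 3344, 2834, 5723, 3376 and 4386 on the ISCH arrays and 2023, 1364, 1483, 1465 and 1306 on the APC arrays. It fell by 1.36 on the log2 scale (SE 0.20, adjusted p = 8.0e-04), without overlap, and CTL ran from 1553 to 2479. All 7 probe sets whose IDs begin with M13100 were below 0, from -0.70 to -1.36, and 2 of them passed and 4 did not overlap. Of all probe sets tested 0.267% passed and 3.57% did not overlap. The M13100 probe sets were looked at because of the 2 that passed, so that these counts follow in part from the choice. Whether the 7 measure separate transcripts was not tested. Both probe sets of rc_AI102839 fell, by 1.06 and 1.20 on the log2 scale. X53581cds#5_f_at fell by 1.04, rc_AI102044_at by 1.11 and rc_AA875132_at by 1.48 on the log2 scale. M13100cds#2_s_at was the probe set that still passed when each of the 10 arrays was left out in turn.

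**Figure D2:**
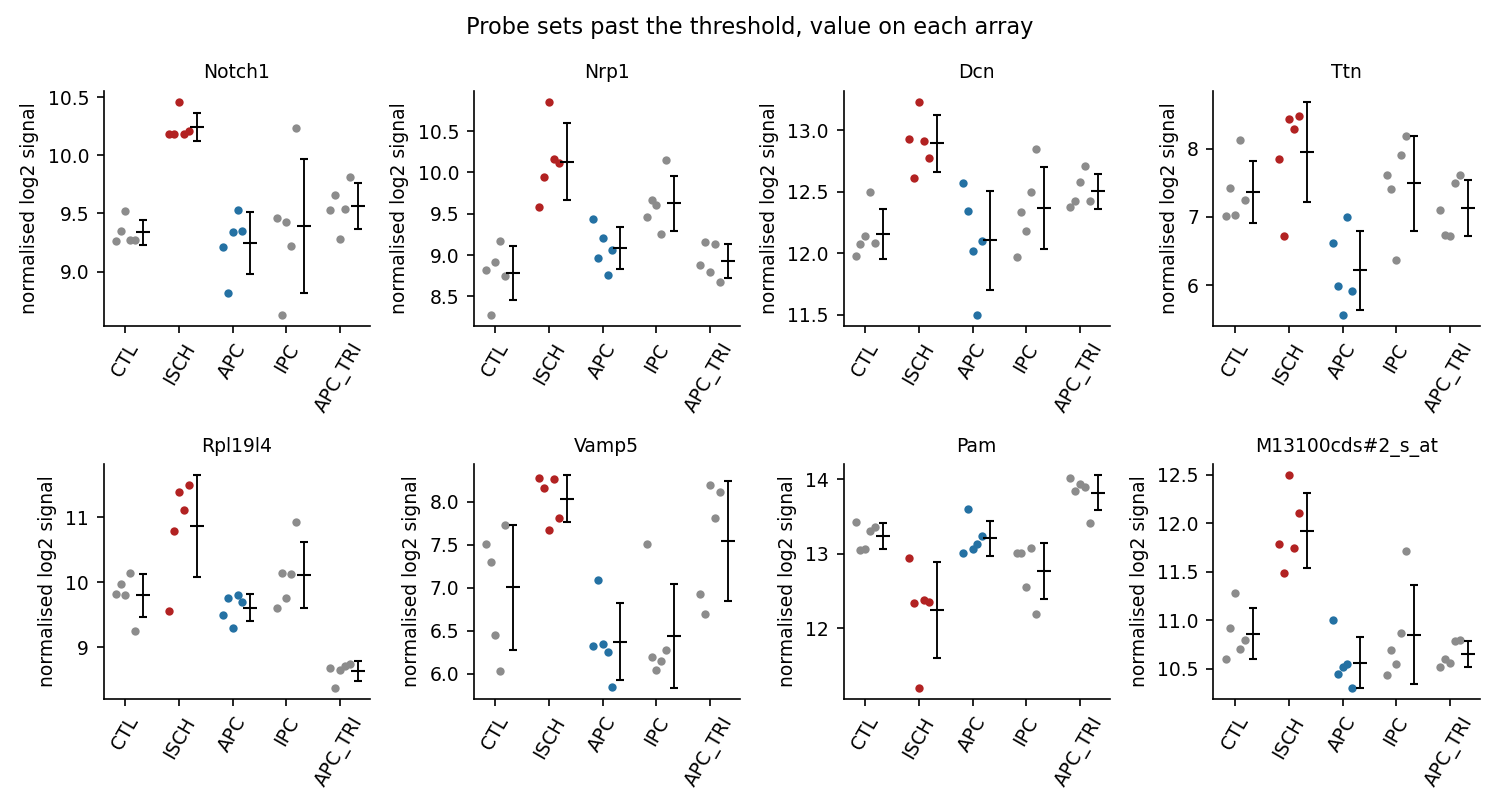
Normalised log2 signal of 8 probe sets past the threshold on each array of CTL, ISCH, APC, IPC and APC_TRI, with the group mean and SD (n = 5) beside the points. For Notch1, Nrp1, Dcn and M13100cds#2_s_at the blue APC points lie below the red ISCH points and near the CTL points, and for Pam above the ISCH points.

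Set against the control hearts, none of the 7 called genes passed in APC minus CTL, and Notch1, Nrp1, Dcn, Rpl19l4 and Pam passed in ISCH minus CTL. APC minus CTL uses the same APC arrays, and ISCH minus CTL uses the same ISCH arrays, so that the values below are not independent of the changes above. Of all probe sets 8.77% passed in ISCH minus CTL and 3.66% in APC minus CTL. Notch1 had 0.91 in ISCH minus CTL (adjusted p = 0.0014) and -0.09 in APC minus CTL (adjusted p = 0.97). Nrp1 had 1.34 (adjusted p = 2.2e-05) and 0.30 (adjusted p = 0.72), and Dcn 0.74 (adjusted p = 0.0033) and -0.05 (adjusted p = 0.98). Pam fell by 1.00 in ISCH minus CTL (adjusted p = 0.0024) and had -0.03 in APC minus CTL (adjusted p = 0.99). Rpl19l4 had 1.07 (adjusted p = 0.013) and -0.19 (adjusted p = 0.95), and Vamp5 1.03 (adjusted p = 0.089) and -0.63 (adjusted p = 0.64). Ttn had 0.59 in ISCH minus CTL (adjusted p = 0.4) and -1.15 in APC minus CTL (adjusted p = 0.11).

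The collagen and matrix genes, which build the scaffold between heart cells, lay mostly below 0 in APC minus ISCH, but none passed by the probe set that stands for its gene. Of 32 genes tested 26 were below 0, with a median of -0.39, against 46.5% of all 3155 genes below 0 and a median of 0.03. At an unadjusted p under 0.05, 14 of the 32 were lower and 0 higher, where 5.23% of all genes were lower, and 3 of the 32 did not overlap with APC lower (1.52% of all genes). The median was -0.44 on the deposited scale and -0.30 after median centring.

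Col3a1, a fibrillar collagen of stretchable tissue, had signals of 6400, 5145, 9913, 11259 and 8123 on the ISCH arrays and 4876, 2626, 3878, 1926 and 4128 on the APC arrays. The deposited signals of all APC arrays were below those of all ISCH arrays, while the normalised values overlapped. Its change was -1.25 ± 0.33 (adjusted p = 0.078). Col5a1, a collagen that sets fibril width, had 1562, 1378, 1698, 2251 and 1839 on the ISCH arrays and 889, 1029, 1401, 815 and 998 on the APC arrays. Its change was -0.80 ± 0.20 (adjusted p = 0.062), with no overlap of the normalised values, although the deposited signal of APC 3 was above that of ISCH 2. Lum, which encodes the collagen-binding proteoglycan lumican, had -0.90 ± 0.25 (adjusted p = 0.11).

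**Figure D3:**
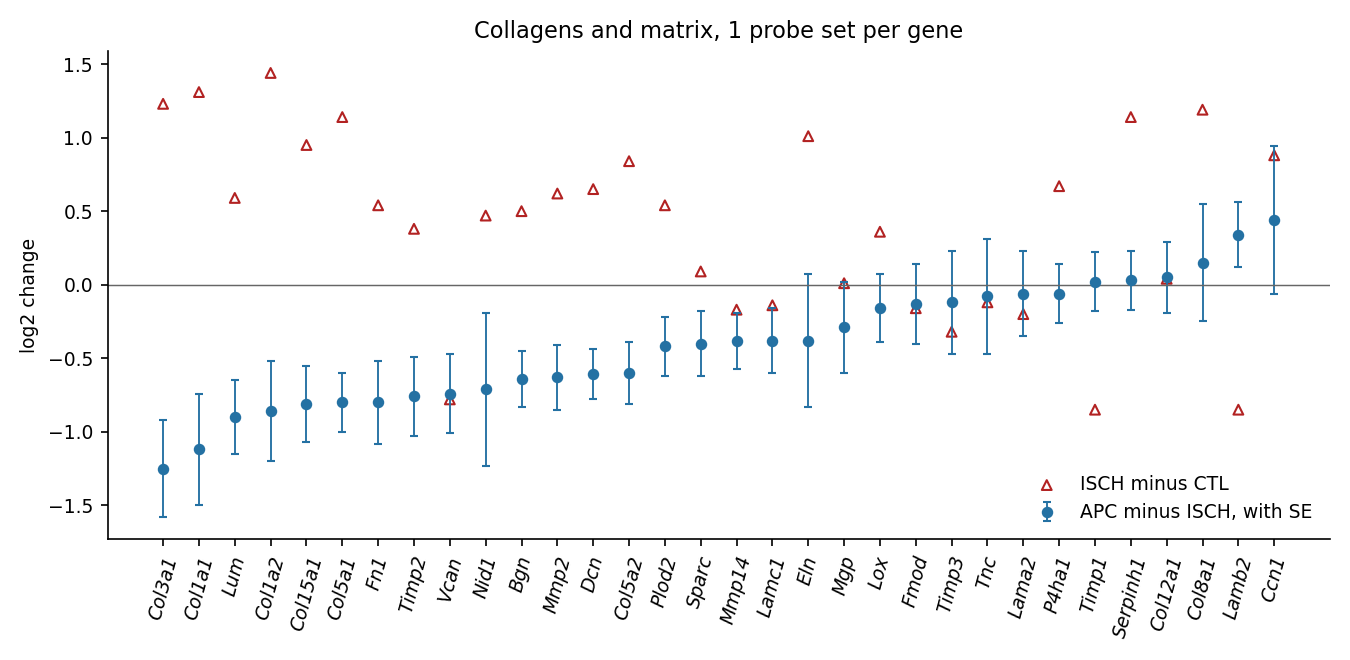
Log2 change of APC minus ISCH with its SE (blue) for the 32 collagen and matrix genes tested, and of ISCH minus CTL (red triangles), which share the ISCH arrays. The blue points run from -1.25 for Col3a1 to 0.44 for Ccn1, and 26 of the 32 lie below 0.

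Fibroblast markers gave a like picture over the 8 tested of 11 on the array, which share collagen genes with the matrix list. All 8 were below 0, with a median of -0.84 (-0.85 with the values as deposited, -0.71 with median centring), and 0 passed. Their summed deposited signal was 36383 to 69103 on the ISCH arrays, 21932 to 33296 on the APC arrays and 22670 to 29125 on the CTL arrays, and none of the 8 was at 0 on any ISCH or APC array. The ISCH arrays did not overlap with the APC arrays in this sum. It includes 1 bright Dcn probe set, whose groups overlapped, at 20749 to 47218 in ISCH and 13693 to 23467 in APC. The deposited sum of the cardiomyocyte markers, given below, was also higher in ISCH without overlap. Vim, the intermediate filament gene of mesenchymal cells, had -0.82 ± 0.22 (adjusted p = 0.087). The part of these markers in the matrix result was not tested.

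Markers of smooth muscle, the cells of the vessel wall, had a median of -0.19 over 8 genes, with 6 below 0 and none past the threshold. Tagln, an actin-binding protein of smooth muscle, had 644, 407, 750, 392 and 866 on the ISCH arrays and 290, 260, 284, 97 and 217 on the APC arrays, without overlap. Its change was -1.34 ± 0.35 (adjusted p = 0.074), and a second probe set had -0.94 ± 0.35. Acta2, the smooth muscle actin gene, had 2240, 1298, 2045, 1089 and 2228 on the ISCH arrays and 472, 1003, 957, 370 and 992 on the APC arrays. These groups did not overlap either, and the change was -1.28 ± 0.34 (adjusted p = 0.079). Myh11, the smooth muscle myosin gene, had -1.14 ± 0.47, but Cnn1 and Myl9, also contractile genes of smooth muscle, had 0.34 ± 0.28 and 0.39 ± 0.43, and Actg2 had -0.07 ± 0.32.

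Endothelial markers, 10 tested, had a median of -0.44 with 7 below 0, and 0 passed. The caveolar protein gene Cav1 had -0.81 ± 0.26 (adjusted p = 0.16), and the adhesion molecule gene Selp 0.55 ± 0.27. Their summed signal overlapped between the groups, at 5483 to 8386 in ISCH and 4436 to 5516 in APC. Markers of the cardiomyocyte had a median of 0.16 over 8 genes, which turned to -0.37 on the deposited scale and to -0.23 after median centring. The summed signal of these 8 genes was 221358 to 406901 on the ISCH arrays and 146025 to 218690 on the APC arrays, without overlap, so that the direction of the strongest heart muscle genes rests on the scaling.

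The genes of smallest p on the lower side beyond the called ones had adjusted p-values from 0.054 to 0.078 and are given as values. Nfib, a transcription factor, had 2076, 2206, 2161, 2161 and 2139 on the ISCH arrays and 1396, 1892, 1639, 1552 and 1279 on the APC arrays. The ISCH arrays were close together and all above the APC arrays, and the change was -0.53 ± 0.12. Other Nfib probe sets had smaller values, -0.32 ± 0.19, -0.06 ± 0.19 and, left out by the filter, -0.28 ± 0.45. Fstl1, a secreted glycoprotein gene, had -1.07 ± 0.26, and its second probe set had -0.52 ± 0.22. Nr3c1, the glucocorticoid receptor gene, had -0.75 ± 0.19 without overlap, but another probe set had -0.03 ± 0.27.

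On the higher side, the 10 genes of smallest p had adjusted p-values from 0.054 to 0.068 and did not pass. Casq2, which stores calcium in the sarcoplasmic reticulum of heart muscle, had 3108, 3124, 2453, 4010 and 3047 on the ISCH arrays and 4844, 4752, 4937, 5888 and 5697 on the APC arrays. All APC arrays lay above all ISCH arrays, and the change was 0.65 ± 0.15 (adjusted p = 0.054). Fdft1, which makes squalene in cholesterol synthesis, had 124, 292, 109, 144 and 136 on the ISCH arrays and 602, 1589, 180, 436 and 953 on the APC arrays. It had the largest value of the 10, 1.94 ± 0.47, but its groups overlapped. Its other 3 probe sets had 0.93 ± 0.32, 0.02 ± 0.36 and 0.05 ± 0.38. Smad7, an inhibitor of TGF-beta signalling, had 27.7, 44, 42.4, 215 and 55.7 on the ISCH arrays and 277, 285, 154, 236 and 245 on the APC arrays. The fourth ISCH array lay among the APC arrays, and the change was 1.81 ± 0.46 (adjusted p = 0.066).

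The other 7 genes of this set had smaller values. Pla2g5, a secreted phospholipase gene, had 0.89 ± 0.21, and Vegfb is given above. G3bp2, which encodes an RNA-binding protein of stress granules, had 0.82 ± 0.20, and Atic, an enzyme of purine synthesis, 0.79 ± 0.19, although a second Atic probe set had -0.03 ± 0.47. Eif2b4, a subunit of the exchange factor that recharges the translation initiator eIF2, had 0.65 ± 0.16. Glud1, the mitochondrial glutamate dehydrogenase, had 0.60 ± 0.15 and its other probe sets 0.54 ± 0.16 and -0.28 ± 0.35. Rhob, a small GTPase, had 0.55 ± 0.14, and in APC minus CTL it rose by 0.91 (adjusted p = 3.3e-05).

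Genes of energy metabolism lay mostly above 0 in APC minus ISCH, and 0 of them passed. Over all genes tested the median was 0.03, with 46.5% below 0. Among genes of the citric acid cycle and of pyruvate dehydrogenase 18 of 21 were above 0, with a median of 0.30 (0.29 with the values as deposited, 0.42 with median centring), and 8 had an unadjusted p under 0.05 on the higher side, where 6.75% of all genes did. Pdk1, a kinase that restrains pyruvate dehydrogenase, had 435, 894, 476, 692 and 636 on the ISCH arrays and 829, 1216, 752, 931 and 1032 on the APC arrays. Its groups overlapped, and its change was 0.62 ± 0.21 (adjusted p = 0.2). The transaminase genes Got2 (0.40 ± 0.14) and Got1 (0.30 ± 0.13) and Suclg1 (0.33 ± 0.13), a subunit of succinyl-CoA ligase, were the next by p.

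In the list of glycolysis and glucose use 18 of 23 were above 0, with a median of 0.19. Pfkm, the muscle phosphofructokinase, had 0.43 ± 0.12 (adjusted p = 0.11), the lactate carrier gene Slc16a1 0.75 ± 0.24, Aldoa 0.49 ± 0.18 and Pgm1 0.36 ± 0.14. Slc16a1 and Aldoa did not overlap between the groups. For fatty acid oxidation 22 of 31 were above 0, with a median of 0.12 and a lowest value of -0.98. At an unadjusted limma p under 0.05, 5 were higher and 1 lower, where 6.75% of all genes were higher and 5.23% lower. The carnitine palmitoyltransferase genes Cpt1b and Cpt2 had 0.34 ± 0.13 and 0.47 ± 0.19. The acyl-CoA dehydrogenase gene Acadvl had 0.44 ± 0.17, and Acot2, a mitochondrial thioesterase, 1.05 ± 0.47. The respiratory chain and ATP synthase list had a median of 0.09 over 40 genes (0.02 with the values as deposited). In it Vdac1, a channel of the mitochondrial outer membrane, had 0.68 ± 0.28, Ckmt2 0.25 ± 0.10, Atp5f1a 0.26 ± 0.11 and Cox4i2 -0.64 ± 0.22.

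**Figure D4:**
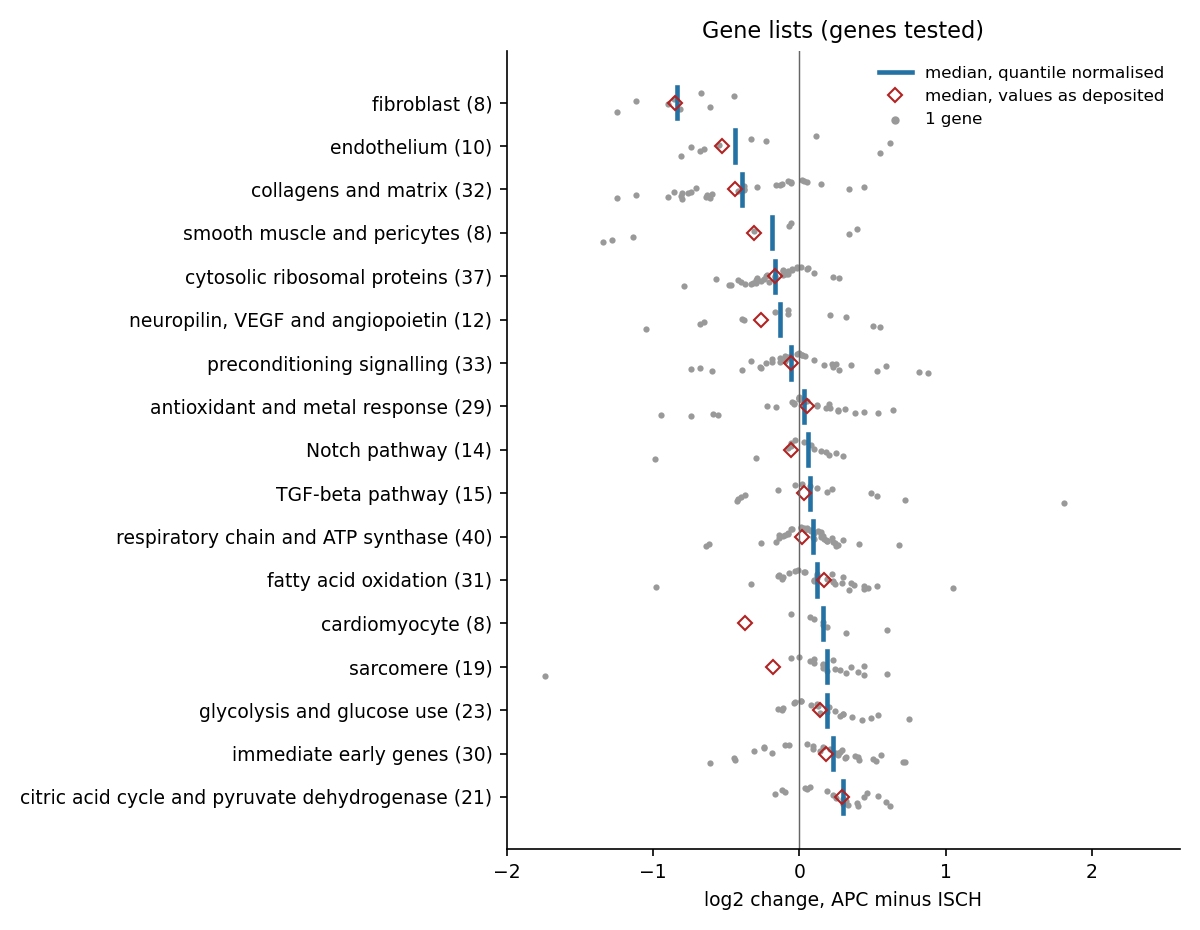
Log2 change of APC minus ISCH for each gene (grey) of 17 lists, with the number of genes tested in brackets, the median after quantile normalisation (blue bar) and the median of the values as deposited (red diamond). The fibroblast list has the lowest median, -0.84, the citric acid cycle list the highest, 0.30, and the cardiomyocyte and sarcomere medians change sign between the scalings.

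In the list of the sarcomere, the contractile unit, 1 of 19 fell, where 0.127% of all genes passed. This is Ttn, the called gene described above. In this list 16 were above 0, with a median of 0.19 that turned to -0.18 on the deposited scale and to -0.04 after median centring. Des, the muscle intermediate filament gene, had 0.44 ± 0.14 and Tmod1, which caps thin filaments, 0.60 ± 0.19. Myh6, the fast heart myosin, had 0.32 ± 0.11 (adjusted p = 0.21), but -0.18 without the quantile normalisation. For calcium handling and ion transport the median was 0.08 over 24 genes, with Kcnq1, a potassium channel gene, at 1.00 ± 0.44, Camk2d at 0.29 ± 0.16 and Pln, the brake on the calcium pump, at 0.28 ± 0.15. The TGF-beta list had a median of 0.07 over 15 genes, with the receptor gene Acvrl1 at -0.43 ± 0.18, Smad1 at 0.72 ± 0.35 and Ltbp1 at -0.42 ± 0.23 beside Smad7. The ribosomal protein genes had a median of -0.17 over 37 (-0.03 after median centring), with 31 below 0 and 0 past the threshold, and Rpl17 (-0.79 ± 0.24), Rpl3 (-0.48 ± 0.16), Rps24 (-0.47 ± 0.19) and Rpl21 (-0.37 ± 0.15) had the smallest p.

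Jun and Fos rose above control in both ischaemic groups. Jun, a transcription factor switched on within minutes of stress, ran from 5753 to 10554 on the ISCH arrays and from 6745 to 10761 on the APC arrays, where CTL ran from 898 to 1758. Its change in APC minus ISCH was 0.25 ± 0.22 (adjusted p = 0.7), and in APC minus CTL it rose by 2.90 (adjusted p = 4.6e-11). Fos had 0.32 ± 0.19 in APC minus ISCH and rose by 1.61 in APC minus CTL (adjusted p = 5.7e-07). Over the list of 30 immediate early genes the median was 0.21 in ISCH minus CTL and 0.31 in APC minus CTL, and Cebpb (-0.57 and 0.14) and Zfp36 (-0.54 and -0.02) did not pass in either. The median of APC minus ISCH was 0.23 and 0 passed, with Egr1 at 0.72 ± 0.23, Cebpb at 0.71 ± 0.26, Zfp36 at 0.52 ± 0.21 and Nr4a1, an orphan nuclear receptor gene, at -0.61 ± 0.19.

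Of the heat shock genes named, Hsph1, Hspa1a and Dnaja1 rose above control in both ischaemic groups. Hsph1, a large chaperone, ran from 2743 to 5053 in ISCH, from 2464 to 3731 in APC and from 441 to 734 in CTL. It had -0.12 ± 0.18 in APC minus ISCH and rose by 2.43 in APC minus CTL (adjusted p = 4.6e-11). Hspa1a, the inducible HSP70, had -0.24 ± 0.32 in APC minus ISCH and rose by 1.83 in APC minus CTL (adjusted p = 1.7e-04). Over 15 heat shock protein genes the median was 0.20 in ISCH minus CTL, 0.36 in APC minus CTL and 0.00 in APC minus ISCH. Hspb6, a small heat shock protein of muscle, had 0.53 ± 0.15 (adjusted p = 0.11) without overlap, with Dnajb5 at 0.32 ± 0.18, Dnaja2 at 0.44 ± 0.26 and Dnaja1 at 0.38 ± 0.23. A p that misses the threshold does not show that the groups were alike for these genes.

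The antioxidant and metal response list had a median of 0.03 over 29 genes, and its 4 genes of smallest p lay on the lower side. Gpx3, a secreted glutathione peroxidase, had 4511, 6044, 7267, 7060 and 6142 on the ISCH arrays and 4538, 3976, 4160, 2203 and 4330 on the APC arrays. The deposited signals of ISCH 1 and APC 1 were nearly equal, and the normalised values did not overlap. Its change was -0.74 ± 0.21 (adjusted p = 0.099). Txnip, which binds and inhibits thioredoxin, had -0.95 ± 0.27 (adjusted p = 0.11), the glutathione transferase gene Gsta1 -0.56 ± 0.22, and Sod3, the extracellular superoxide dismutase, -0.59 ± 0.24. Hmox1, the inducible haem oxygenase, had 0.02 ± 0.19, between 2101 and 3656 on the ISCH arrays and between 2536 and 3521 on the APC arrays.

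Genes of the signalling known from preconditioning had a median of -0.06 over 33 (0.08 with median centring), and 0 passed. Mapk9, a stress kinase, had 0.88 ± 0.31, the beta-1 adrenergic receptor gene Adrb1 0.82 ± 0.35, the kinase gene Akt2 0.53 ± 0.28 and Kcnj8, a pore subunit of ATP-sensitive potassium channels, -0.60 ± 0.30. The natriuretic peptide genes Nppa (-0.12 ± 0.36) and Nppb (0.33 ± 0.16) and the prostaglandin synthase gene Ptgs2 (0.35 ± 0.35) did not pass. Mx2, a gene that interferons induce, was at 35.6 to 88.3 on the ISCH arrays and 35.1 to 92.9 on the APC arrays, where CTL ran from 1132 to 3097. It had 0.22 ± 0.51 in APC minus ISCH and fell by 4.77 in APC minus CTL (adjusted p = 7.2e-08). The cytokine, chemokine and adhesion list had a median of 0.05 over 30 genes, with Ccl3 at 0.67 ± 0.26, Socs3 at 0.78 ± 0.33 and Vcam1 at 0.56 ± 0.26.

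The 2 kinds of preconditioning were compared with each other on separate arrays. In APC minus IPC 0 of 5244 probe sets passed with limma (0%), and 137 had an unadjusted p under 0.05 (2.61%). Pnmt, which turns noradrenaline into adrenaline, had the smallest p, with 1.47 ± 0.28 (adjusted p = 0.07). It passed with the values as deposited (1.53, adjusted p = 0.032), with array weights (1.62, adjusted p = 0.0014) and in 3 other settings. The mean Pnmt signal in APC was 613, near the 628 of ISCH and the 587 of CTL. In APC minus ISCH Pnmt had 0.09 ± 0.28 (adjusted p = 0.94 from limma), so that no rise over ISCH was found. Next on the higher side were Ppp1r10, a phosphatase regulator in the nucleus, at 0.72 ± 0.22 and rc_AA946439_at at 0.99 ± 0.32. On the lower side Ttn had -1.28 ± 0.38, and 2 probe sets of Anxa1, an anti-inflammatory lipid-binding protein, had -0.66 ± 0.19 and -0.90 ± 0.27. Of the called genes, Notch1 had -0.15, Nrp1 -0.54 and Dcn -0.26 in APC minus IPC.

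The last comparison asked whether the anaesthetic went with another change when the ischaemia followed than when it did not, as the difference between APC minus ISCH and APC_TRI minus CTL. The 4 groups hold separate arrays, and in APC_TRI minus CTL alone 8.64% of probe sets passed. The 4 groups also differed in technical measures, among them the share of the signal in the brightest 1% of probe sets. It was 37.1% ± 4.15% in ISCH and 34.6% ± 1.26% in APC_TRI (SD, n = 5). In CTL it was 30.2% ± 3.19% and in APC 29.8% ± 2.55%. The part of this share in the difference of effects was not tested. The actin difference was -0.357 ± 0.279 in APC_TRI and 0.0816 ± 0.245 in CTL. In ISCH it was 0.319 ± 0.063 and in APC 0.0403 ± 0.268 (SD, n = 5). The mean spike signal (log2) was 12 in ISCH, 11.1 in APC_TRI, 10.8 in CTL and 10.8 in APC. Of 5244 probe sets 431 passed (8.22%), 252 higher (4.81%) and 179 lower (3.41%). When the spike signal was a covariate 37 passed, and with the actin difference as a covariate 434 passed. With median centring the split was 378 higher and 125 lower. Over the 5244 probe sets the changes of the 2 comparisons had a Pearson r of -0.281, given as a description, since the probe sets share arrays and their scaling.

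Ckmt2, the creatine kinase of heart mitochondria, had means of 7278 ± 867 in CTL, 3182 ± 269 in APC_TRI, 5362 ± 1148 in ISCH and 7053 ± 946 in APC (SD, n = 5). The trigger group was the lowest and APC was near CTL. Its change was 0.42 ± 0.15 in APC minus ISCH and fell by 1.23 in APC_TRI minus CTL (adjusted p = 1.0e-05), a difference of 1.66 ± 0.21 (adjusted p = 3.0e-05), and its second probe set gave 0.69 (adjusted p = 0.0034). Pdhb, a subunit of pyruvate dehydrogenase, had differences of 2.17 ± 0.32 and 1.30 ± 0.20 with its 2 probe sets, and Acsl1, which activates fatty acids, 1.20 ± 0.19. The Acsl1 probe set of highest mean had the opposite difference, -0.70 (adjusted p = 0.023), so that the direction for Acsl1 depends on the probe set.

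The opposite difference was found for Dcn by another of its probe sets, with means of 15261 ± 2642 in CTL, 32384 ± 4445 in APC_TRI, 31700 ± 9676 in ISCH and 16916 ± 3981 in APC (SD, n = 5). These are means of deposited signals. The APC_TRI and ISCH means were close, as were the CTL and APC means. The groups paired likewise in the share of the brightest 1% of probe sets. The difference, on normalised values, was -1.46 ± 0.24 (adjusted p = 6.6e-04 from limma). The called Dcn probe set gave -1.13, but the other 2 gave -0.43 (adjusted p = 0.34) and 0.06 (adjusted p = 0.95). Srsf2, a splicing factor, had -1.88 ± 0.29 with 1 probe set and 0.05 (adjusted p = 0.94) with another. Gda, guanine deaminase, had -1.57 ± 0.26, and U17837UTR#1_g_at, not named here, -1.58 ± 0.21. By list, with 1 probe set per gene and against 4.81% higher and 3.41% lower over all probe sets, 6 of 21 citric acid cycle genes, 5 of 31 fatty acid oxidation genes and 5 of 40 respiratory chain genes had a higher change with ischaemia, and 0, 1 and 2 a lower one. In the collagen and matrix list 0 were higher and 4 of 32 lower, and in the ribosomal protein list 0 were higher and 3 of 37 lower. These counts belong to the fit of 431 calls, of which the spike covariate left 37 in all.

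**Figure D5:**
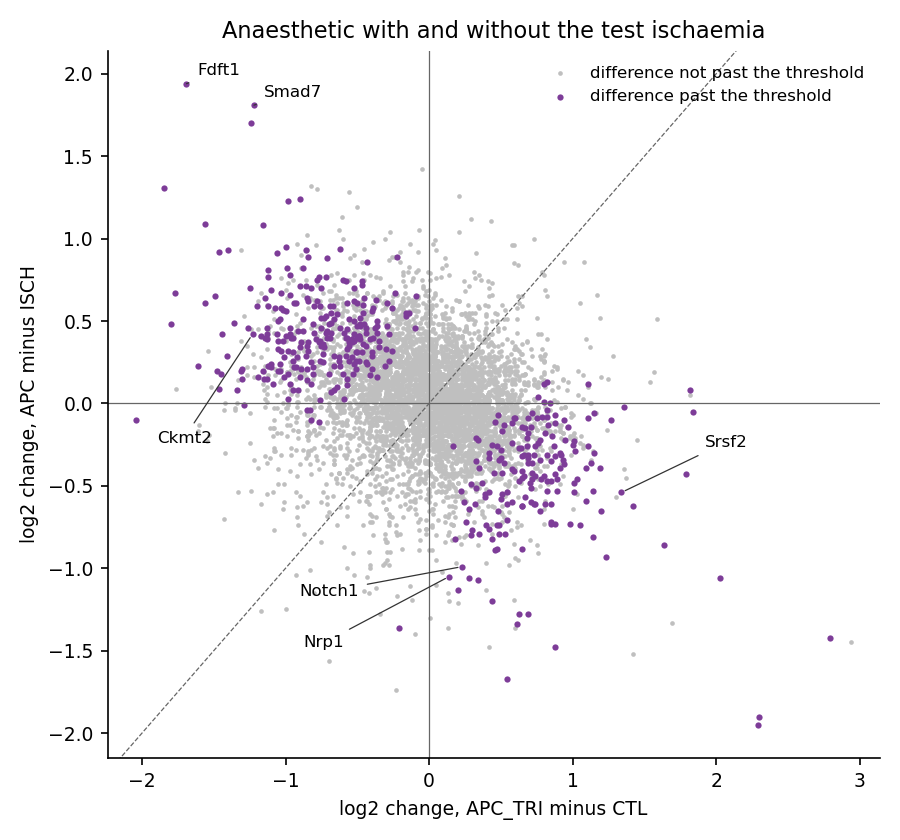
Log2 change of APC_TRI minus CTL (horizontal) against APC minus ISCH (vertical) for 5244 probe sets, with those whose difference passed the threshold in purple and equal changes on the dashed line. Of the 431 purple points, 252 have a higher and 179 a lower change in APC minus ISCH, and Ckmt2 lies at upper left.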

How the data were processed

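The deposited table gives each probe set 1 linear intensity on each array, and the software that made it is not given in the sources used here. The 2% trimmed mean of the deposited intensity values was close to 501 on each array, a common scale. Arrays were grouped by their titles. Of 8799 probe sets, 59 array controls were left out, 7006 of the rest carried 1 gene symbol, 308 several and 1426 none in the annotation used.

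Values were taken as log2 of the signal plus 16 and quantile normalised, and probe sets in the lowest 40% by mean were dropped. A linear model with 1 mean for each of the 6 groups was fitted (limma 3.58.1, R 4.3.3, trended variance) and p-values were adjusted over 5244 probe sets for each comparison. Where a gene had several probe sets, that of highest mean represented it.

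Named were every called probe set, the 10 genes of smallest p in each direction, 4 members of smallest p of each list described, and Nppa, Nppb, Hspa1a, Fos, Jun, Hmox1, Ptgs2, Myh6, Hsph1 and Mx2. The members, lists and settings were chosen with earlier results of these data known. The fit was tested on simulated data. No 2 arrays were identical (0 pairs), and no pair correlated above 0.976. Correlations of same-numbered arrays ran from -0.0587 to 0.104, and the means for other numbers from -0.0289 to 0.0233. Replicate 4 had its own number as the best match, and the other replicates did not. With 5 weak correlations this check cannot decide whether the numbers pair the arrays. Promoters came from RefSeq (GRCr8); Dcn and Rpl19l4 had no entry. Tables and figures used Python 3.11.15, pandas 2.3.3 and matplotlib 3.10.9. Precision is limited by having 5 arrays a group.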

Additional observations from a re-analysis of the deposited data

Results flagged for a closer look

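In 5 of 80 groups of 5 arrays examined for the 40 most described probe sets, 1 array stood apart from the other 4 by Dixon's test, where chance gives about 1 in 20. These were Notch1 on ISCH 3 (signal 1347), Tagln on APC 4 (97), Fdft1 on ISCH 2 (292), Smad7 on APC 3 (154) and Hsph1 on ISCH 3 (5053).

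For 21 of the 40 probe sets the change of APC minus ISCH differed from that of APC_TRI minus CTL by the limma test of the difference itself, at an adjusted p under 0.05, against 8.22% of all probe sets. Most of the 40 were named for a small p in APC minus ISCH, which is one side of this difference, so that the share follows in part from how they were chosen. Differences below 0, with the APC minus ISCH change the lower, were -1.15 for M13100cds#2_s_at, -1.22 for Notch1, -1.19 for Nrp1, -1.34 and -1.64 for the 2 probe sets of rc_AI102839, -1.13 for the called Dcn probe set, -2.36 for rc_AA875132_at and -2.21 for Vamp5. Those of the uncalled genes were -0.76 for Nfib, -1.41 for Fstl1, -1.09 for Col5a1 and -1.94 for Tagln. Differences above 0 were 0.75 for Casq2, 1.11 for Pla2g5, 0.71 for Vegfb, 3.63 for Fdft1, 1.70 for G3bp2, 1.05 for Glud1, 3.03 for Smad7, 0.69 for Rhob and 0.59 for Myh6.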

How the results depend on the processing

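Of APC minus ISCH, the count of 14 became 8 with no filter on low values, 35 with 60% of probe sets left out, 54 with the values as deposited, 1 with median centring, 39 with centring on the median of the probe sets tested (chosen after seeing the data), 203 with array weights, 0 with a covariate for the bacterial spikes, 3 with the beta-actin ratio of 3′ to 5′ probe sets as a covariate, 6 with only the groups compared in the fit and 38 without ISCH 1 and IPC_TRI 5, which earlier results set apart. Leaving out each array in turn gave 1 to 33. For APC minus IPC 1 passed with 60% left out, the values as deposited, centring over the probe sets tested and array weights, and 0 to 1 with an array left out. The difference of effects gave 990 with array weights, 37 with the spike covariate and 786 with only the groups compared. The cause was not tested. Median centring moved the median change of all probe sets from 0.02 to 0.11. A replicate block gave 15, 0 and 439 calls in the 3 comparisons, with 12 of the 14 kept. Whether the numbers pair the arrays could not be decided.

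Notch1 lost its call in 5 of 23 settings (without APC 5, ISCH 3 or ISCH 5, with median centring and with the spike covariate), Nrp1 in 8 of 23 and M13100cds#2_s_at in 1 of 23. Dcn lost it in 9 of 23, Ttn in 12 of 22, Rpl19l4 and Pam in 13 of 23 each, rc_AI102044_at in 15 of 23 and Vamp5 in 16 of 22, and the other 5 called probe sets in 8 to 11 of 23. None of the 14 changed sign. Signs turned only for genes that had not passed. With the values as deposited, median centring and centring over the probe sets tested, Actc1 had -0.60, -0.46 and -0.54, Myl2 -0.53, -0.39 and -0.47, and Myh6 -0.18, -0.04 and -0.12. The 2 median centrings gave Hsph1 0.08 and 0.00, and median centring gave Nppa 0.03. With the spike covariate Ccl3 had -0.07, Dnaja2 -0.06, Hmox1 -0.26, Hspa1a 0.19, Jag2 0.02, Mx2 -0.10, Myl2 -0.01 and Ptgs2 -0.07. The actin covariate gave Mx2 -0.46, and Ptgs2 had -0.00 without ISCH 1 and IPC_TRI 5. With an array left out, Nppa ran from -0.29 to 0.03, Hmox1 from -0.10 to 0.10, Ptgs2 from -0.00 to 0.59 and Hsph1 from -0.18 to 0.02. Weak signals and 5 arrays per group limit all of these values.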

Other observations

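Lists not described above lay near 0 in APC minus ISCH, with 0 genes past the threshold. The interferon response had a median of -0.11 over 15 genes, beside -2.32 in ISCH minus CTL and -2.30 in APC minus CTL. Endoplasmic reticulum stress genes had 0.07 over 14, apoptosis genes 0.03 over 13, proteasome and ubiquitin genes 0.10 over 24, and cholesterol synthesis genes -0.02 over 10. Fetal and hypertrophy genes had 0.07 over 14. Among cell type markers the medians were -0.04 for myeloid cells (4 genes), -0.11 for lymphocytes (4 genes), -0.10 for adipocytes (3 genes), -0.17 for nerve and Schwann cells (3 genes), 0.06 for mast cells (3 genes) -0.10 for skeletal muscle (5 genes), -0.12 for atrial myocardium (3 genes) and 0.25 for red blood cells (1 gene).

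Single genes of these lists had values that did not pass. Diablo, a mitochondrial protein that promotes apoptosis, had 0.37 ± 0.16, and Bnip3l, a mitophagy receptor, -0.30 ± 0.15. The proteasome genes Psmc2 and Psme2 had 0.44 ± 0.13 and 0.58 ± 0.21, and Lss, of cholesterol synthesis, -0.56 ± 0.26.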
